A study of Mus musculus with 10 samples.

Results

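Hyper-organoids were compared with ENR-organoids within cell classes, to describe which pathways and gene families differed between the 2 culture conditions in cells of one annotated kind. Organoids are gel-embedded cultures of epithelium, here started from the crypts of proximal mouse small intestine. The comparison uses 6 of the 10 single-cell RNA-sequencing libraries of the series, 3 of each condition, which hold 15456 of the 25204 cells that the authors kept. Members were taken by library label and by the authors' class label, which gave 4349 stem cells (SC), 6664 transit-amplifying cells (TA), 873 goblet cells (GC) and 502 enteroendocrine cells (EE) over both conditions.

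ENR medium held EGF (50 ng/mL), Noggin (100 ng/mL) and R-Spondin 1 (500 ng/mL). Hyper medium held EGF (50 ng/mL), FGF2 (20 ng/mL), 10% R-Spondin 1 conditioned medium, LDN193189 (0.2 µM), GSK-3 Inhibitor XV (0.1 µM), Pexmetinib (1 µM), valproic acid (VPA, 500 µM) and EPZ6438 (2 µM). Replicate numbers 1, 2 and 3 stand for libraries whose names begin with 2, 6 and C, here called culture series, a term that the labels do not use. The Hyper libraries were at passage 1, 6 and 3 and the ENR libraries at passage 2, 7 and 3. The Hyper cultures of series 2 and 6 came out of an ENR culture, and both libraries of series C were started from primary crypts. The mouse strain of each library, and whether the series came from separate animals or separate cultures, were not given in the sources used here. The p-values therefore measure the spread between these libraries. The study gave the SC label to separate clusters of cells in each condition, and cluster numbers were not used here, so SC or TA cells of both conditions need not be cells of the same state. Passage, origin and series cannot be told apart with 1 library each.

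The components of Hyper medium act at known points. VPA inhibits histone deacetylases. EPZ6438 inhibits EZH2, the catalytic subunit of Polycomb repressive complex 2 (PRC2), which methylates histone H3 at lysine 27 and keeps developmental genes silent, often at promoters rich in CG dinucleotides. LDN193189 blocks BMP type I receptors, whereas Noggin acts on the same pathway by sequestering BMP ligands. The GSK-3 inhibitor stabilises β-catenin and so acts on the Wnt pathway together with R-Spondin, and Pexmetinib inhibits p38 MAP kinase and the receptor TIE2. In the crypt, stem cells divide into transit-amplifying cells, which give absorptive and secretory cells, and goblet, Paneth and enteroendocrine cells make mucus, antimicrobial proteins and hormones.

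The unit throughout is the sum of UMIs (unique molecular identifiers, 1 per captured molecule) of a gene over the cells of one class in one library, scaled to a common total per library and class (CPM). Differences are log2 fold changes, Hyper- minus ENR-organoids, and a gene was called at an edgeR adjusted p under 0.05 with at least a 2-fold difference. The number of SC cells per library lay between 229 and 322 in ENR-organoids and between 874 and 1481 in Hyper-organoids, and that of EE cells between 61 and 107 over all 6 libraries. The median SC cell held between 31294 and 42140 UMIs and the median EE cell between 14295 and 24908. Barcodes shared by any 2 organoid libraries numbered at most 5. In sums over a class, fewer cells with a transcript and less of it per cell cannot be told apart.

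The class labels held up against their markers except for SC and GC in Hyper-organoids. Summed goblet markers were lower in Hyper GC cells (9658, 17207 and 19367 CPM) than in the few Hyper Paneth cells (14240, 24458 and 44458 CPM), while in ENR-organoids they were higher in GC cells. The summed level of the SC markers in SC cells was 3936, 4560 and 3157 CPM in ENR-organoids and 923, 295 and 268 CPM in Hyper-organoids, which in Hyper-organoids was no higher than in the TA cells of the same libraries (952, 300 and 283 CPM). In ENR replicates 1 and 2 the sum in SC cells was above that in TA cells (2554 and 2659 CPM). Summed marker levels are CPM without the TMM adjustment for composition that single genes carry, so a sum and a single gene are on slightly different scales. On the scale of single genes the stem cell marker Olfm4 stood at 3782, 4421 and 3159 CPM in ENR and 593, 20.9 and 35.4 CPM in Hyper SC cells, while Lgr5, the R-Spondin receptor of crypt stem cells, stood at 104 ± 9.83 CPM (SD, n = 3) in ENR and 142 ± 20.5 CPM in Hyper SC cells. Olfm4 made up nearly all of the ENR sum, so the lower sum in Hyper SC cells is mainly that of Olfm4. Markers of TA cells in Hyper-organoids separated the 2 classes, with 2843 to 3182 CPM in TA against 1092 to 1449 CPM in SC cells. The goblet label held much Paneth product in both conditions, with Paneth markers at 3386 to 3933 CPM in ENR and 3518 to 7832 CPM in Hyper GC cells. Mature absorptive and Paneth cells differed in number between the conditions, with 214 to 340 enterocytes (EC), 486 to 809 enterocyte precursors (EP) and 32 to 54 Paneth cells (PC) per ENR library against 7 to 58, 2 to 3 and 2 to 10 per Hyper library.

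Promoters of 4 genes on which results below turn are shown, 2 of developmental regulators that rose (Hoxa7 and Sox11) and 2 of absorptive genes that fell (Apoa4 and Sis). Each runs from 250 bases before to 50 bases after the RefSeq start, 5′ to 3′ on the gene's strand in GRCm38.p6, and capitals mark CG dinucleotides. The Sox11 promoter held 21 CG dinucleotides, a number reached by 25.0% of 27025 promoters of the same length, and the Hoxa7 promoter 9, reached by 46.2%. Those of Apoa4 and Sis held 1 each, and 14.6% of promoters held at most as many. The median over all promoters was 7. These counts describe the 4 windows only, since the promoter table held too few members of the gene lists for a comparison of groups.
Hoxa7 promoter, chr6:52218524-52218823, minus strand: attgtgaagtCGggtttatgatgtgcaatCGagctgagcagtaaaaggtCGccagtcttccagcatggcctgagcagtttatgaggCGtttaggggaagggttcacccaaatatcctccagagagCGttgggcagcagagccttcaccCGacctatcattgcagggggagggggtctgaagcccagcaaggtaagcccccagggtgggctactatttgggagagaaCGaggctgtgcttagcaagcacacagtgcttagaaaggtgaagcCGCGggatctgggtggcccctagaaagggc
Sox11 promoter, chr12:27342669-27342968, minus strand: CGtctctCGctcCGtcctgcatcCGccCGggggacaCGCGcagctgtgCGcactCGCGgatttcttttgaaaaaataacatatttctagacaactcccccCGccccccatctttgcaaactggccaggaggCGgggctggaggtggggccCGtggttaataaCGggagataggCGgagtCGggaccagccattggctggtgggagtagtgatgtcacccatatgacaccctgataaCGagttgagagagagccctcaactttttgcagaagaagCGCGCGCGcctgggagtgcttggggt
Apoa4 promoter, chr9:46240594-46240893, plus strand: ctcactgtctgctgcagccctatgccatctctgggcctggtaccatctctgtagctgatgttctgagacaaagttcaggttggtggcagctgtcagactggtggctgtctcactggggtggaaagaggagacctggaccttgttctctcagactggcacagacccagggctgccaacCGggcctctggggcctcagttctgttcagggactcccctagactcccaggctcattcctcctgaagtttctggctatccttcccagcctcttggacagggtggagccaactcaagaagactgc
Sis promoter, chr3:72967814-72968113, minus strand: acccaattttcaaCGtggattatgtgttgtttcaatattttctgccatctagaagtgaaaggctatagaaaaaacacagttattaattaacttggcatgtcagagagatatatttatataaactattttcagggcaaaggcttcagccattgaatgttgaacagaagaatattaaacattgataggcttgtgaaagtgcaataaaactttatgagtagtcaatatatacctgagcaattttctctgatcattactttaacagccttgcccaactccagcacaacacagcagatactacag

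Far more genes were higher than lower in Hyper-organoids in every class. In SC cells 2119 of 13920 tested genes (15.2%) were called higher and 390 (2.80%) lower, 18.0% in all. Over all kept cells together 22.9% of 16037 genes were called in either direction. In TA cells 2497 of 14553 (17.2%) were higher and 550 (3.78%) lower, in GC cells 1254 of 11714 (10.7%) were higher and 309 (2.64%) lower, and in EE cells 659 of 11050 (5.96%) were higher and 159 (1.44%) lower. The shares called in either direction were 20.9% in TA, 13.3% in GC and 7.40% in EE cells. The shares called higher (15.2% in SC, 17.2% in TA, 10.7% in GC and 5.96% in EE cells) and lower (2.80%, 3.78%, 2.64% and 1.44%) are the background for every list count that follows. List counts cover tested members only, those with enough UMIs to pass the count filter. A gene nearly absent in one condition passes through the libraries of the other, and is then likely to be called. Shares of tested members are thus not shares of whole lists. The median log2 fold change over all tested genes was within 0.01 of zero in each class. The TMM adjustment places the bulk of genes near no change, so this median was largely set by the scaling. A change in the total RNA of a cell could not show in these values. The sign of the difference was the same in all 3 culture series for 2115 of the 2119 genes higher in SC cells and 655 of the 659 higher in EE cells, and for 384 of the 390 and 155 of the 159 lower ones. These genes were called from the same libraries, so this agreement was largely set by the call itself.

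Genes called higher in SC, TA or GC cells were mostly called higher in the other 2 of these classes, and between 35.1% and 41.7% of them were called in EE cells. Of 10493 genes tested in all 4 classes, 359 (3.42%) were called higher in all 4 and 25 (0.238%) lower in all 4, while 28 were called higher in a class and lower in another. Of the 1094 genes higher in SC cells, 91.0% were also higher in TA, 72.9% in GC and 36.8% in EE cells. Of the 567 genes higher in EE cells, 71.1% were higher in SC, 72.8% in TA and 74.1% in GC cells. Of the 157 genes lower in SC cells, 79.6% were also lower in TA, 53.5% in GC and 17.2% in EE cells, and of the 106 lower in EE cells 25.5% were lower in SC, 33.0% in TA and 41.5% in GC cells. EE cells were the fewest, so a gene called elsewhere and not there may only have missed the threshold.

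The genes with the largest rise shared by all 4 classes went from near absence to clear expression. Bex4 (chrX:136138996-136140443, plus strand), a small adaptor protein of the Bex family, had 2 UMIs in all ENR SC cells together and 33126 in Hyper SC cells, a ratio of sums of 3950 (exact 95% interval 1090 to 32600, counting error only). In EE cells Bex4 stood at 0, 2.66 and 3.21 CPM in ENR and 140, 228 and 182 CPM in Hyper-organoids (log2 fold change 6.59, SE 0.40, adjusted p 1.75e-05). No ENR library came near any Hyper library in either class.

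Itm2a, a transmembrane protein, had no UMI in ENR GC or EE cells and in Hyper cells reached at least 140-fold and at least 65.8-fold a floor of 3 UMIs per group. Sirpa, an inhibitory receptor known from myeloid cells and neurons, had no UMI in any ENR class, and its Hyper level exceeded the floor at least 65.0-fold in SC, 250-fold in TA, 46.7-fold in GC and 10.6-fold in EE cells. Sfmbt2, an imprinted gene for a Polycomb-group protein, was likewise without a UMI under ENR, and its Hyper level exceeded the floor at least 38.3-fold in SC, 174-fold in TA, 15.9-fold in GC and 12.1-fold in EE cells. Inha, the inhibin alpha subunit, and Dnajc6, a cofactor of clathrin uncoating, were at least 46.8-fold and at least 49.0-fold higher in SC cells. Of genes lower in all 4 classes, Cfhr2, of the complement factor H family, had 8.07 ± 2.37 CPM (SD, n = 3) in ENR GC cells and no UMI in Hyper GC cells, at least 46.1-fold lower.

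**Figure D1:**
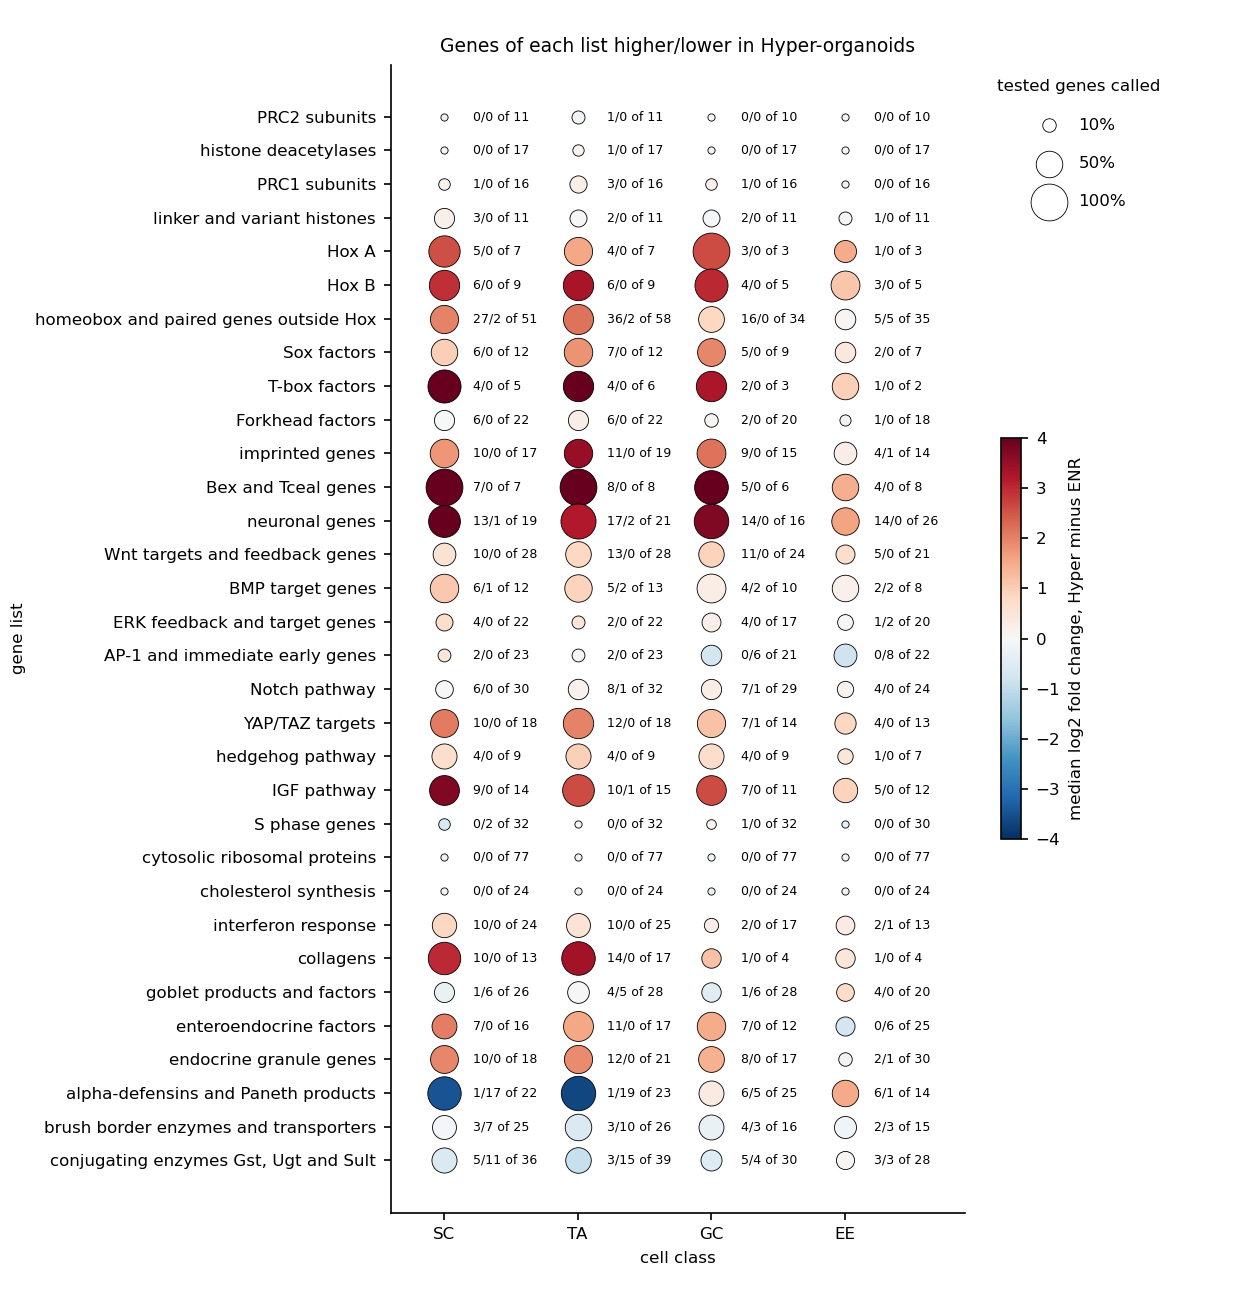
For 32 gene lists (rows) and the 4 classes (columns), the size of a point is the percentage of tested genes called, its colour the median log2 fold change (Hyper minus ENR, colours end at ±4), and the text beside it the number called higher and lower of those tested. Bex and Tceal genes are called higher in 7 of 7 tested in SC cells, while ribosomal protein and cholesterol synthesis lists have no called gene in any class.

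Most transcripts of the enzymes that the medium inhibits did not reach the 2-fold threshold, and Hdac7 in TA cells did. In SC cells Ezh2 stood at 104, 103 and 106 CPM in ENR and 88, 72 and 80.8 CPM in Hyper-organoids, so the groups did not overlap, with a log2 fold change of -0.37 (SE 0.08, adjusted p 0.00281). In GC cells they did overlap (65.5, 80.7 and 76.0 against 71.6, 78.2 and 74.9 CPM). The PRC2 subunits Eed and Suz12 had log2 fold changes of -0.37 and -0.34 in SC cells, of the same size as that of Ezh2. Of the 11 tested PRC2 subunits none was called in SC cells by edgeR or DESeq2, beside 18.0% of all tested genes, and 5 had an unadjusted p under 0.05, as had 55.6% of all genes. In TA cells 1 was called, Phf19, an accessory subunit that rose by 1.02 on the log2 scale.

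Hdac1, a class I histone deacetylase, stood at 69.2, 71.7 and 69.0 CPM in ENR TA cells and at 106 CPM in each Hyper library (log2 fold change 0.60, SE 0.04, adjusted p 1.03e-05), below the 2-fold threshold. Hdac2 and Hdac3 had log2 fold changes of 0.01 and -0.00 in SC cells. Of 17 deacetylase genes tested, 1 was called in TA cells, Hdac7, which rose from 3.76, 3.31 and 2.97 to 7.12, 7.13 and 6.06 CPM (log2 fold change 1.02, SE 0.13, adjusted p 0.000202), and none in SC, GC or EE cells by edgeR or DESeq2, where 3, 7 and 4 had an unadjusted p under 0.05 beside 55.6%, 41.4% and 28.1% of all genes. Gsk3b had log2 fold changes between -0.17 and -0.02 over the 4 classes, and Mapk14, which encodes p38α, between -0.11 and 0.27. The BMP type I receptor genes Bmpr1a and Acvr1 were not called in any class, and Acvr1 stood apart in TA cells (5.64, 5.78 and 5.20 against 8.51, 9.12 and 8.45 CPM, log2 fold change 0.65).

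Receptors for the growth factors in the medium differed in opposite directions. Egfr stood at 15.4, 14.6 and 12.7 CPM in ENR TA cells and 7.97, 8.52 and 8.30 CPM in Hyper TA cells (log2 fold change -0.78, SE 0.10, adjusted p 0.000188), under the threshold of 2-fold, and in EE cells the difference was -0.91. Fgfr1, a receptor for FGF2, rose in TA cells from 0.174, 0.0545 and 0.0319 CPM to 2.38, 1.61 and 1.60 CPM (log2 fold change 4.34, SE 0.47, adjusted p 9.48e-05). In EE cells Fgfr1 had 1 UMI over the ENR libraries and 49 over the Hyper libraries, a ratio of 26.9 (exact 95% interval 4.61 to 1080). Fgfr4 rose in GC cells from 3.61 ± 0.22 to 11.5 ± 2.3 CPM (SD, n = 3), a larger change than in SC cells by 1.14 on the log2 scale (SE 0.26, edgeR interaction adjusted p 0.00379). Fgfr2 had log2 fold changes of 0.67 in SC and 0.78 in TA cells and was called in neither.

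**Figure D2:**
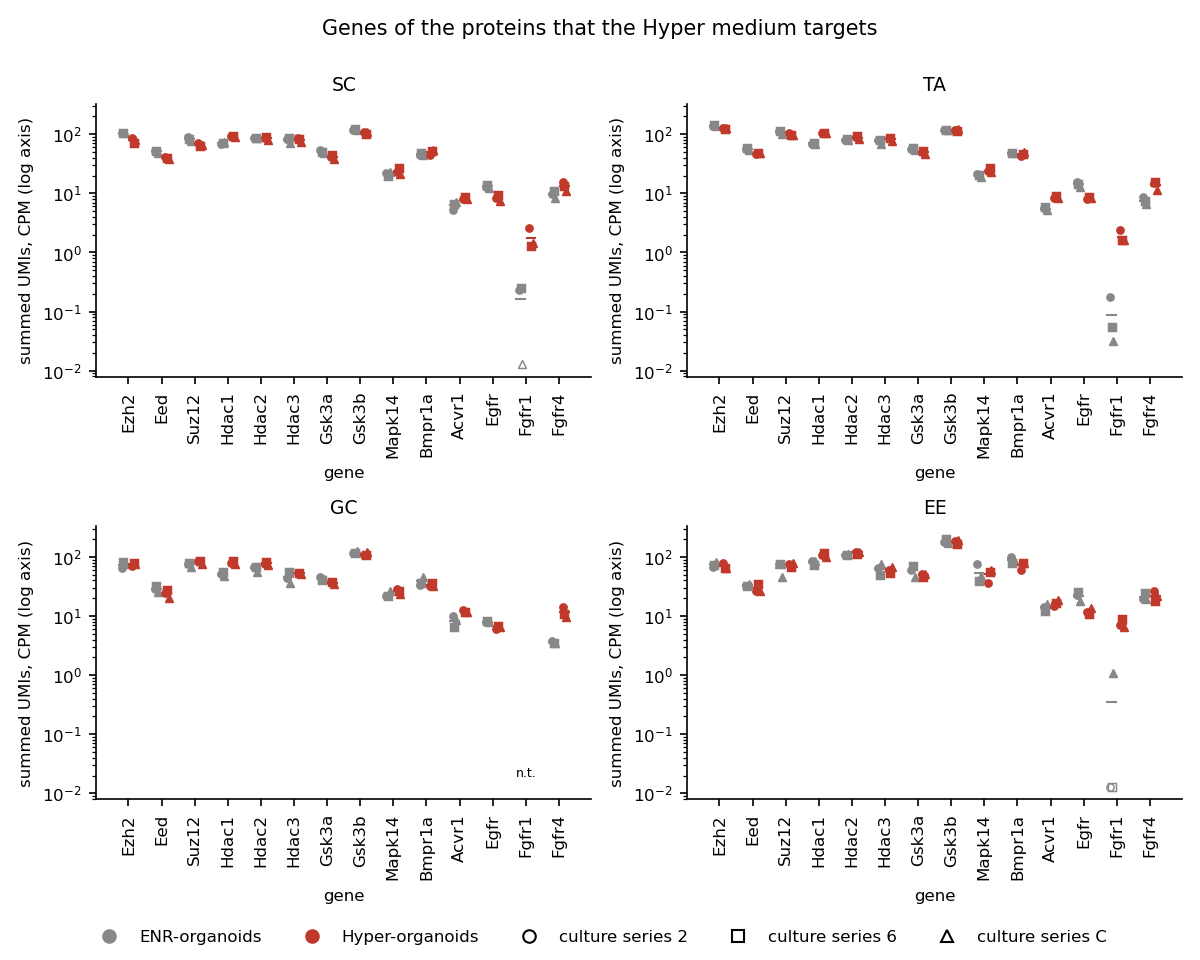
Summed UMIs in CPM (log axis) of 14 genes for the proteins that the Hyper medium acts on, in each of the 4 classes, with 1 point per library (circles, squares and triangles for culture series 2, 6 and C), bars at the group means and open symbols at the bottom for libraries without a UMI. The mark n.t. stands where a gene had too few UMIs in a class to be tested. Ezh2, Hdac1 and Gsk3b stay within 2-fold between the group means in each class, and Fgfr1 in TA cells goes from at most 0.174 CPM in ENR libraries to at least 1.60 CPM in Hyper libraries.

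Single chromatin genes outside the targeted enzymes changed, while in SC cells the share of their lists called higher was near or below that of all genes except for linker and variant histones. H2afy2 (chr10:61738665-61784147, minus strand), which encodes the variant histone macroH2A2, stood at 0.548, 0.0827 and 0.139 CPM in ENR and 21.6, 23.9 and 19 CPM in Hyper SC cells (log2 fold change 6.24, SE 0.31, adjusted p 1.37e-06). It had no UMI in ENR GC cells with at least 63.5-fold more in Hyper GC cells, and in EE cells, where ENR libraries already held 5.32 to 7.21 CPM, it rose by 2.18. The groups did not overlap in any class.

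H1fx, a linker histone gene, rose by 3.1 in SC, 3.62 in TA and 4.62 in GC cells on the log2 scale, and in EE cells it stood at 74.3, 39.3 and 71.6 against 43.5, 59.6 and 45.6 CPM, overlapping groups. H1f0, a linker histone of resting and differentiated cells, rose in SC cells from 172, 183 and 168 to 427, 429 and 328 CPM. Bmi1, a subunit of Polycomb repressive complex 1 (PRC1), rose by 1.04 in SC, 1.21 in TA and 1.13 in GC cells and was not called in EE cells. Tet1, which oxidises 5-methylcytosine, rose by 1.68 in SC, 2.46 in TA and 1.85 in GC cells. As lists, PRC1 subunits had 1 of 16 called higher in SC cells, linker and variant histones 3 of 11, and DNA methylation genes 1 of 7, beside the 15.2% of all genes called higher in SC cells. Of 5 H3K27 demethylases and acetyltransferases none was called in SC cells by edgeR or DESeq2, and 3 had an unadjusted p under 0.05. Of replication-type histones, 3 of 53 were higher and 4 (7.55%, beside 2.80% of all genes) lower in SC cells, where DESeq2 called 1 lower, and 1 of 62 was higher in TA cells.

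Hox genes set position along the body axis in the embryo, and part of those tested in clusters A and B were higher in every class. Of 9 Hox C genes none had enough UMIs to be tested. Of 10 Hox D genes 1 was tested, in TA cells only, and called higher there. Of the tested members, 5 of 7 Hox A and 6 of 9 Hox B genes were called higher in SC cells, 4 of 7 and 6 of 9 in TA, 3 of 3 and 4 of 5 in GC, and 1 of 3 and 3 of 5 in EE cells, with none lower. In GC cells DESeq2 called 2 Hox A and 2 Hox B genes. The corresponding shares over all genes were 15.2%, 17.2%, 10.7% and 5.96%. The median log2 fold change of the Hox A list was 2.56 in SC cells and that of Hox B 2.91, or 2.60 with genes lacking ENR UMIs at their lower bound, against about 0 over all genes.

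Hoxa7 (chr6:52214491-52221854, minus strand) stood at 1.57, 0.579 and 0.278 CPM in ENR SC cells and 4.91, 12.6 and 17.5 CPM in Hyper SC cells (log2 fold change 3.70, SE 0.80, adjusted p 0.00406). Hyper replicate 1, at passage 1, was the lowest of the Hyper libraries in all 4 classes, and the groups did not overlap in any class. Hoxb8 (chr11:96281905-96285315, plus strand) had no UMI in ENR SC or GC cells and was at least 27.9-fold and at least 10.5-fold higher in Hyper-organoids. Its Hyper SC values were 0.397, 1.70 and 6.34 CPM, so most of it came from replicate 3.

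Several other families of developmental transcription factors had a larger share of tested members called higher than all genes had, and forkhead and Gata factors did not in every class. Of 123 homeobox genes outside the Hox clusters, 51 were tested in SC cells, with 27 called higher and 2 lower. In TA cells 36 of 58 tested were higher and 2 lower, and in GC cells 16 of 34 and none. In EE cells 5 of 35 (14.3%) were higher and 5 (14.3%) lower, where DESeq2 called 3 higher and 5 lower. Of all genes 15.2%, 17.2%, 10.7% and 5.96% were higher in SC, TA, GC and EE cells, and 1.44% were lower in EE cells. Zfhx4, a large zinc finger and homeobox protein, had 1 UMI in ENR SC cells and 3134 in Hyper SC cells, a ratio of 747 (exact 95% interval 134 to 29500). In EE cells Zfhx4 had a ratio of 63.5 (17.4 to 527). Satb1, a chromatin organiser, had a ratio of 190 (34.1 to 7530) in SC and of 77.5 (13.7 to 3080) in EE cells. Meis2, a Hox cofactor, rose less, from 5.68 ± 5.91 to 25.4 ± 9.66 CPM (SD, n = 3) in SC cells.

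Sox11 (chr12:27334264-27342574, minus strand), a SoxC factor of embryonic progenitors whose CG-rich promoter is printed above, stood at 0.548, 0.248 and 0.278 CPM in ENR and 34.1, 33.1 and 23.8 CPM in Hyper SC cells (log2 fold change 6.33, SE 0.28, adjusted p 1e-06). Its mean Hyper level was 30.3 CPM in SC, 36.3 in TA, 27.7 in GC and 31.4 in EE cells. Sox12, of the same subgroup, was called higher in all 4 classes with log2 fold changes of 1.24, 2.25, 1.97 and 1.17. Of the Sox list, 6 of 12 were higher in SC, 7 of 12 in TA, 5 of 9 in GC and 2 of 7 in EE cells. The shares of all genes were 15.2%, 17.2%, 10.7% and 5.96%. Eomes, a T-box factor of mesoderm and immune cells, rose by 4.77 in SC and 2.49 in EE cells, the latter not called by DESeq2, with Hyper replicate 1 the lowest Hyper library in each class. Foxp2, a forkhead factor, had no UMI in ENR SC, TA or GC cells, and Hyper cells held at least 57.2-fold, 315-fold and 60.7-fold more. Of forkhead genes, 6 of 22 were higher in SC and in TA cells, and 2 of 20 in GC and 1 of 18 in EE cells, near the shares of all genes. The 3 Gata genes tested were called in no class by edgeR or DESeq2, with 2 at an unadjusted p under 0.05 in SC cells, and of 24 regional identity factors of gut epithelium 2 were higher and 1 lower in SC cells.

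Imprinted genes, of which cells normally use the copy from one parent, were higher in 10 of 17 tested in SC, 11 of 19 in TA, 9 of 15 in GC and 4 of 14 in EE cells, with 1 lower in EE cells. Beside this, 15.2%, 17.2%, 10.7% and 5.96% of all genes were higher, and 1.44% lower in EE cells. Sgce (chr6:4674350-4747207, minus strand), epsilon-sarcoglycan, had no UMI in ENR TA and GC cells and Hyper cells held at least 504-fold and at least 49.1-fold more. In EE cells Sgce stood at 0.721, 0 and 0 CPM in ENR and 15.7, 22.6 and 30.4 CPM in Hyper-organoids. Peg3 (chr7:6703892-6730431, minus strand), a zinc finger protein, had a ratio of sums of 459 (exact 95% interval 127 to 3790) in SC cells and was at least 142-fold higher in GC cells.

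In EE cells Peg3 was already present in ENR-organoids, at 117, 75.2 and 32.0 CPM, and had 116, 156 and 155 CPM in Hyper-organoids, which was not called (log2 fold change 0.89, adjusted p 0.0698). Plagl1, a zinc finger factor of an imprinted growth network, rose by 3.39 in SC, 3.55 in TA and 3.31 in GC cells. Cdkn1c, which encodes the cell cycle inhibitor p57, was the imprinted gene that moved both ways. It rose from 6.90, 6.61 and 6.11 to 23.3, 19.4 and 18.1 CPM in SC cells and fell from 487, 545 and 482 to 98.7, 97.0 and 146 CPM in EE cells (log2 fold change -2.15, SE 0.18, adjusted p 4.93e-05). In both classes the groups were apart in all libraries.

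The Bex and Tceal genes, a cluster on the X chromosome that is expressed in neurons and endocrine cells, were higher in most tested members in SC, TA and GC cells and in 4 of 8 in EE cells. All 7 tested were called higher in SC, all 8 in TA, 5 of 6 in GC and 4 of 8 in EE cells, with median log2 fold changes of 5.63, 6.98, 6.59 and 1.44 (5.26 in TA cells with bounds in place of fits). Tceal8 had no UMI in ENR SC cells and 45.0, 47.8 and 49.9 CPM in Hyper SC cells, at least 545-fold higher. Bex1 in EE cells rose from 24.5, 20.0 and 25.6 to 258, 303 and 250 CPM. Bex3, chosen after its values were seen, stood at 366, 304 and 365 against 355, 446 and 418 CPM in EE cells, overlapping groups, while in SC cells it rose from 36.8 ± 0.1 to 160 ± 6 CPM (SD, n = 3).

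Neuronal genes were higher in 13 of 19 tested in SC, 17 of 21 in TA, 14 of 16 in GC and 14 of 26 in EE cells, with 1 lower in SC and 2 lower in TA cells. The shares of all genes called higher were 15.2%, 17.2%, 10.7% and 5.96%. Nefl, the neurofilament light chain, had no UMI in ENR GC cells with at least 62.1-fold more in Hyper GC cells, and in EE cells it rose from 65.6, 20.0 and 49.1 to 266, 237 and 310 CPM. Dpysl3, a cytoskeletal protein of growing axons, rose by 1.60 in GC and 3.80 in EE cells on the log2 scale. Markers of glia and neural crest were called higher in 1 of 4 in SC cells (Ret), 1 of 5 in TA, 1 of 3 in GC and none of 2 in EE cells. Of these markers 1 was lower in TA and in GC cells. Stromal markers were called higher in 2 of 4 in SC, 3 of 5 in TA, 1 of 1 in GC and none of 2 in EE cells. The part of other cell types in these values was not tested, and Vim, an intermediate filament gene of stromal cells, rose in SC cells from 0.204 ± 0.165 to 42.0 ± 42.6 CPM (SD, n = 3), led by Hyper replicate 1 with 91.0 CPM against 20.7 and 14.3 CPM. In EE cells Vim stood at 1077, 467 and 594 CPM in ENR and 379, 376 and 403 CPM in Hyper-organoids, so the EE class held it in both conditions.

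**Figure D3:**
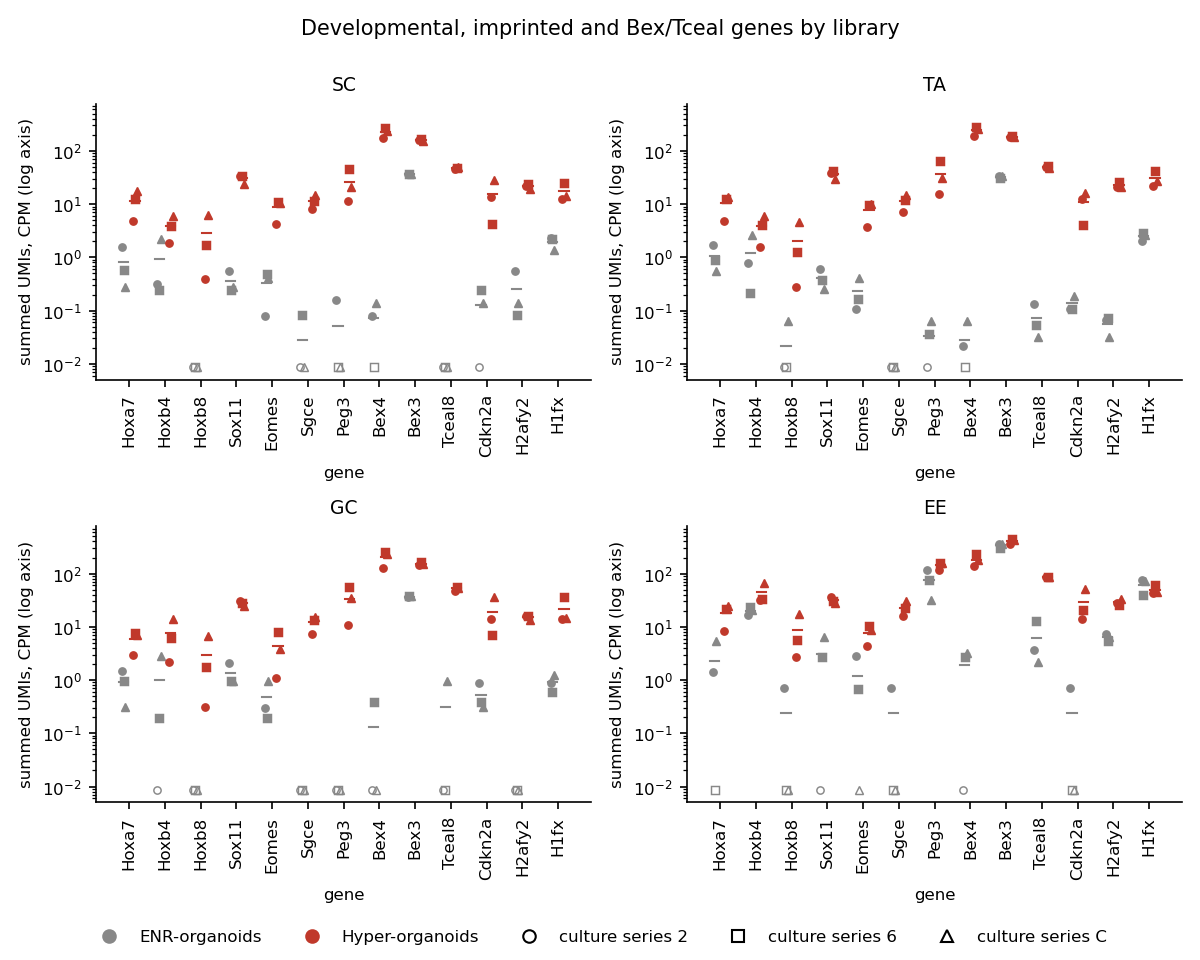
Summed UMIs in CPM (log axis) of 13 developmental, imprinted, Bex/Tceal and chromatin genes in the 4 classes, with 1 point per library (circles, squares and triangles for culture series 2, 6 and C), bars at the means and open symbols at the bottom for libraries without a UMI. Bex4 and Tceal8 are near absence in ENR SC libraries and above 40 CPM in every Hyper SC library, whereas Peg3, Bex3 and H1fx overlap or nearly overlap in EE cells.

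Wnt target and feedback genes were higher in part in every class. Of 28 Wnt target and feedback genes, 10 were called higher in SC and 13 in TA cells, with 11 of 24 in GC and 5 of 21 in EE cells and none lower, against 15.2%, 17.2%, 10.7% and 5.96% of all genes. Nkd1, a feedback inhibitor that binds Dishevelled, stood at 0.548, 1.41 and 0.556 CPM in ENR and 26, 10.7 and 5.48 CPM in Hyper SC cells (log2 fold change 4.02, SE 0.70, adjusted p 0.00128). Hyper replicate 1 was the highest in all 4 classes. Sp5, a Wnt-induced transcription factor, rose by 1.06 in SC, 1.68 in TA, 2.11 in GC and 1.55 in EE cells.

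Lgr5, a stem cell Wnt target, passed the threshold in the secretory classes and not in the stem class. In GC cells it rose from 34.4, 47.3 and 20.1 to 142, 124 and 117 CPM (log2 fold change 1.88, SE 0.21, adjusted p 6.31e-05), and in EE cells from 16.6, 12 and 4.27 to 79.9, 50.8 and 48.3 CPM. The Hyper level in GC cells was thus near the 142 CPM of Hyper SC cells. Ascl2, a stem cell transcription factor, had log2 fold changes of -0.81 in SC and -0.62 in TA cells (adjusted p 0.00684 and 0.0108) and was called in no class. Among ligands and receptors, Wnt3, the Paneth cell Wnt, rose in GC cells from 55.5 ± 6.81 to 152 ± 14.5 CPM (SD, n = 3) and in EE cells from 85.8 ± 11.6 to 191 ± 27.3 CPM. The receptor Fzd5 fell, with log2 fold changes of -1.37 in TA, -1.17 in GC and -1.29 in EE cells.

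BMP target genes were mixed. Id1 (chr2:152736251-152737410, plus strand), a direct BMP target that inhibits basic helix-loop-helix factors, fell in SC cells from 40.6, 47.1 and 42.5 to 10.4, 15.6 and 17.4 CPM (log2 fold change -1.59, SE 0.17, adjusted p 7.5e-05), with log2 fold changes of -2.02 in TA, -2.63 in GC and -2.06 in EE cells. Id3 fell too, with -1.49 in TA, -2.10 in GC and -2.75 in EE cells, and in SC cells its difference of -0.58 was below the threshold. Both conditions contained a BMP inhibitor, Noggin in ENR and LDN193189 in Hyper medium. The list as a whole had 6 of 12 higher and 1 lower in SC cells, beside 15.2% and 2.80% of all genes. In GC cells 4 of 10 were higher (3 by DESeq2) and 2 lower, beside 10.7% and 2.64%. Msx1, a homeobox target of BMP, rose by 3.66 in SC and 1.51 in EE cells, the latter not called by DESeq2.

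Ligands, receptors and inhibitors of the BMP and TGF-β family were higher in 16 of 36 tested in SC and 16 of 38 in TA cells. In GC cells 11 of 29 were higher and in EE cells 8 of 26, with 1 lower in TA cells. DESeq2 called 14 higher in SC, 10 in GC and 6 in EE cells. Of all genes 15.2%, 17.2%, 10.7% and 5.96% were higher in SC, TA, GC and EE cells. Tgfb1 (chr7:25687002-25705077, plus strand) rose in SC cells from 1.65, 1.57 and 1.53 to 18.3, 20.2 and 22.5 CPM (log2 fold change 3.67, SE 0.16, adjusted p 9.85e-07), and by 4.05 in TA, 2.54 in GC and 2.79 in EE cells. The difference was many times the spread among libraries in SC cells, and the groups did not overlap in any class.

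Of the genes downstream of EGF and FGF, few were called. Of 22 ERK feedback and target genes, 4 (18.2%) were called higher in SC and 2 (9.09%) in TA cells, with 4 of 17 (23.5%) in GC cells, and 1 of 20 higher and 2 lower in EE cells, where 15.2%, 17.2%, 10.7% and 5.96% of all genes were higher. Tested against the change in SC cells, 1 ERK gene had a higher and 4 a lower change in GC, 1 a higher and 5 a lower change in EE, and none differed in TA cells. Of 18 p38 and JNK pathway genes, 3 were higher in SC, 2 in TA and 3 in GC cells, the last with 1 lower, and 3 of 17 (17.6%) were higher in EE cells, where DESeq2 called 1. FGF and EGF ligands and receptors had 8 of 24 (33.3%) higher in SC, 7 of 24 higher and 1 lower in TA, 2 of 14 higher in GC and 2 of 15 (13.3%) in EE cells. For this list DESeq2 called none lower in TA and 1 higher in EE cells.

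Some AP-1 and immediate early genes, which respond within minutes to growth factors and to tissue dissociation, were called lower in the secretory classes, and none in SC cells. In GC cells none of 21 was called higher and 6 were lower (median log2 fold change -0.74), and in EE cells none of 22 was higher and 8 were lower (-0.82), while in SC cells 2 of 23 were higher and none lower (0.53). Over all genes 2.64% were lower in GC and 1.44% in EE cells, and 15.2% were higher in SC cells. Fos (chr12:85473890-85477273, plus strand) fell in GC cells from 346, 324 and 308 to 179, 150 and 64.9 CPM (log2 fold change -1.30, SE 0.27, adjusted p 0.00362) and in EE cells from 502, 345 and 385 to 232, 165 and 74.3 CPM. In SC cells it stood at 192, 213 and 132 against 306, 215 and 174 CPM, which overlapped. Atf3 (chr1:191170296-191218039, minus strand), a stress-induced factor, rose by 1.60 in SC and 1.23 in TA cells and fell by 1.28 in GC cells.

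The 16 genes known from dissociation stress, several of which are also in the AP-1 list, had 3 (18.8%, near the 15.2% of all genes) higher and none lower in SC cells, and 1 (6.25%) higher and 3 (18.8%) lower in GC cells, where 10.7% and 2.64% of all genes were. Cells of all classes of a library went through the same dissociation, and whether handling contributed to these values was not tested.

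YAP/TAZ targets, which report on growth control by the Hippo pathway, were higher in 10 of 18 tested in SC, 12 of 18 in TA, 7 of 14 in GC and 4 of 13 in EE cells (2 by DESeq2), with 1 lower in GC cells, where 15.2%, 17.2%, 10.7% and 5.96% of all genes were higher. Fjx1, of the four-jointed family, had no UMI in ENR SC, TA or GC cells and Hyper cells held at least 115-fold, 266-fold and 29.0-fold more, while in EE cells it rose from 8.28 ± 3.1 to 43.5 ± 15.4 CPM (SD, n = 3). Hyper replicate 1 was the lowest Hyper library for Fjx1 in all 4 classes. Clu, a marker of the regenerating epithelium, was also lowest in Hyper replicate 1 in SC and GC cells, with 5.82, 40.8 and 26.6 CPM in Hyper SC and 2.33, 4.92 and 17.2 CPM in Hyper GC cells. Notch pathway genes were higher in 6 of 30 in SC, 8 of 32 in TA, 7 of 29 in GC and 4 of 24 in EE cells, with 1 lower in TA and in GC cells. These are 20.0%, 25.0%, 24.1% and 16.7% of the genes tested, above the share of all genes in each class and nearest to it in SC cells. DESeq2 called 2 of the 24 Notch genes in EE cells.

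The hedgehog ligand Shh had no UMI in ENR EE cells and 22.7, 31 and 25.0 CPM in Hyper EE cells, at least 31.3-fold higher. In SC cells Shh rose from 0.364 ± 0.187 to 6.07 ± 1.57 CPM (SD, n = 3). Of 9 hedgehog genes, 4 were higher in SC, TA and GC cells, and 1 of 7 was in EE cells. Of all genes 15.2%, 17.2%, 10.7% and 5.96% were higher in these classes. DESeq2 called 3 hedgehog genes in GC cells.

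Genes of the insulin-like growth factor (IGF) system were higher in 9 of 14 tested in SC, 10 of 15 in TA, 7 of 11 in GC and 5 of 12 in EE cells, with 1 lower in TA cells, against 15.2%, 17.2%, 10.7% and 5.96% of all genes. Igfbp4, an IGF-binding protein that also marks stem cells, rose in GC cells from 8.90, 12.3 and 6.59 to 134, 147 and 127 CPM (log2 fold change 3.82, SE 0.28, adjusted p 4.06e-06), in EE cells by 4.69 and in SC cells by 2.08. Igfbp5 had no UMI in ENR GC cells and was at least 63.8-fold higher. Igf2bp3, an RNA-binding protein of fetal tissues, rose by 2.22 in SC, 2.14 in TA, 2.62 in GC and 3.61 in EE cells. The groups did not overlap for Igfbp4 or Igf2bp3 in any class.

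Few cell cycle genes were called. Of 32 S phase genes none was called higher and 2 were lower in SC cells, with a median log2 fold change of -0.59 and 29 at an unadjusted p under 0.05 beside 55.6% of all genes. None was called in TA cells, where the median was 0.09, and of 32 mitosis genes 1 was higher and 1 lower in SC cells and none was called in TA cells. The list of cyclin-dependent kinase inhibitors, D cyclins and p53 targets had 7 of 27 higher in SC, 6 in TA, 5 in GC and 4 in EE cells, with 1 lower in GC and in EE cells. These are 25.9%, 22.2%, 18.5% and 14.8% higher, against 15.2%, 17.2%, 10.7% and 5.96% of all genes. Cdkn2a (chr4:89274471-89294653, minus strand), the locus of p16INK4a and p19ARF and a classical PRC2 target, stood at 0, 0.248 and 0.139 CPM in ENR SC cells and 13.8, 4.28 and 28.2 CPM in Hyper SC cells (log2 fold change 6.89, SE 1.09, adjusted p 0.000744). In EE cells it had a ratio of sums of 96.2 (exact 95% interval 17 to 3820). The Hyper libraries differed widely among themselves in SC cells, and the lowest still lay above all ENR libraries. Zmat3, a p53 target, was called higher in all 4 classes with log2 fold changes of 1.47, 1.46, 1.47 and 1.26. UMIs counted at the 3′ end do not separate the overlapping transcripts of Cdkn2a.

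Metabolic lists differed among themselves. None of 77 ribosomal protein genes and none of 24 cholesterol synthesis genes was called in SC, TA, GC or EE cells by edgeR or DESeq2. In SC cells 56 and 11 of them had an unadjusted p under 0.05, beside 55.6% of all genes. Their median log2 fold changes in SC cells were -0.21 and 0.03. Respiratory chain genes had 1 of 78 (1.28%) higher and 2 (2.56%) lower in SC cells, beside 15.2% and 2.80% of all genes. Of the 78, 62 in SC and 65 in TA cells had an unadjusted p under 0.05. Their median log2 fold changes were -0.25 and -0.30, so small differences below the threshold were common in this list. Cyp1a1, the standard target of the aryl hydrocarbon receptor, had no UMI in ENR GC cells and was at least 43.2-fold higher there, and in SC cells it went from 0.189 ± 0.170 to 31.6 ± 9.98 CPM (SD, n = 3). PPAR targets and fat oxidation genes had 10 of 32 (31.2%) higher and 2 lower in SC cells and 2 of 26 higher and 2 lower in EE cells. Glycolysis genes had 7 of 25 (28.0%) higher in SC, 3 higher and 1 lower in TA, 5 (20.0%) higher and 2 lower in GC, and 6 (24.0%) higher and 1 lower in EE cells, with median log2 fold changes between 0.39 and 0.66. All genes called higher made up 15.2%, 17.2%, 10.7% and 5.96% in these classes, so the glycolysis share in TA cells was below that of all genes.

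Part of the immune genes that epithelium can express were higher in each class. Of interferon response genes, 10 of 24 (41.7%) were called higher in SC, 10 of 25 (40.0%) in TA, 2 of 17 (11.8%, beside 10.7% of all genes) in GC and 2 of 13 (15.4%, beside 5.96%) in EE cells, the last with 1 lower. Bst2, an antiviral membrane protein, rose by 2.69 in SC, 2.74 in TA, 2.41 in GC and 2.82 in EE cells. H2-Ab1, an MHC class II chain, rose in SC cells from 0.548, 0.248 and 0.139 to 31.4, 16.1 and 30.5 CPM (log2 fold change 6.23, SE 0.57, adjusted p 3.27e-05) and in EE cells from 10.1, 7.99 and 12.8 to 45.4, 53.6 and 59.1 CPM. Leukocyte markers were called higher in 1 of 3 tested in SC cells, in 1 of 4 with 1 lower in TA cells, in none of 2 in GC cells, and in 1 of 2 with 1 lower in EE cells.

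Extracellular matrix genes followed the same direction. Of 44 collagens in the list, 10 of 13 tested were higher in SC and 14 of 17 in TA cells, and 1 of 4 in GC and EE cells. Genes in general were higher in 15.2%, 17.2%, 10.7% and 5.96% in SC, TA, GC and EE cells. Col27a1, a fibrillar collagen, rose by 6.17 in SC and 7.45 in TA cells, and in GC cells, with no UMI in ENR libraries, it was at least 18.0-fold higher. Lama5, a laminin chain of the epithelial basement membrane, rose by 4.06 in SC, 4.32 in TA and 1.74 in GC cells. Laminins as a list had 4 of 7 higher in SC and 5 of 7 in TA cells. The stromal marker Col1a1 went from 0.0276 to 0.408 CPM in SC cells (group means).

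In goblet cells, some mucus products fell while an antimicrobial product rose. Muc2, the gel-forming mucin, fell in GC cells from 942, 718 and 1278 to 100, 358 and 544 CPM (log2 fold change -1.55, SE 0.45, adjusted p 0.021), with Hyper replicate 1 lowest and no overlap. Fcgbp, a mucus-binding protein, fell from 5480, 4048 and 5621 to 942, 1708 and 1968 CPM (-1.71, SE 0.24, adjusted p 0.00028). Ang4, an angiogenin with antimicrobial activity, rose from 79.5, 112 and 89.8 to 409, 421 and 582 CPM (2.32, SE 0.23, adjusted p 2.24e-05).

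Of 28 goblet products and factors tested in GC cells, 1 was called higher and 6 (21.4%) lower (median log2 fold change -0.46), beside 10.7% higher and 2.64% lower over all genes. Lower calls were not particular to GC cells. The list had 1 of 26 higher and 6 (23.1%) lower in SC cells, and 4 of 28 higher and 5 (17.9%) lower in TA cells. Of all genes 2.80% and 3.78% were lower there. In EE cells 4 of 20 were higher (3 by DESeq2) and none lower, with a median of 0.78, beside 5.96% of all genes higher. Zg16, a lectin of mucus, varied so widely (1975, 3098 and 8664 against 0, 160 and 1221 CPM) that it was not called (adjusted p 0.0679). The summed goblet markers fell in the same libraries, from 28955, 23050 and 31450 CPM in ENR to 9658, 17207 and 19367 CPM in Hyper GC cells, while Paneth markers were highest in Hyper replicate 1 (7832 CPM). Whether cells of mixed goblet and Paneth kind account for these levels was not tested.

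In enteroendocrine cells some hormones fell. Gcg, the precursor of GLP-1, fell in EE cells from 4643, 4221 and 1071 to 19.6, 12.5 and 10.3 CPM (log2 fold change -7.84, SE 0.73, adjusted p 9.31e-05). Cck, cholecystokinin, fell from 13930, 8544 and 8622 to 669, 4264 and 1662 CPM (-2.24, SE 0.51, adjusted p 0.0135). Iapp, amylin, rose from 39.0, 85.8 and 94.0 to 84.2, 210 and 492 CPM, and its groups overlapped, with the lowest Hyper library below the highest ENR library. Of 18 gut hormone genes tested in EE cells, 1 was called higher, Iapp, which DESeq2 did not call, and 3 (16.7%) lower, beside 5.96% and 1.44% of all genes.

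Chga, a granule protein of endocrine cells, stood at 1959, 1668 and 1696 against 683, 2239 and 1734 CPM in EE cells and was not called, with Hyper replicate 1 below all others. Of 30 endocrine granule genes 2 (6.67%) were higher and 1 lower, near the 5.96% and 1.44% of all genes. The summed EE markers were 38042, 24189 and 26024 CPM in ENR and 7665, 21723 and 15226 CPM in Hyper EE cells. In SC cells they were between 4 and 11 CPM in both conditions.

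Transcription factors of the endocrine lineage had none of 25 called higher and 6 lower in EE cells (median log2 fold change -0.75), beside 5.96% and 1.44% of all genes. Etv1 (chr12:38779380-38870484, plus strand) fell in EE cells from 162, 138 and 63 to 27.8, 31.9 and 31.5 CPM (-2.02, SE 0.27, adjusted p 0.00066). Onecut3 fell from 23.2 ± 9.28 to 10.1 ± 2.94 CPM (SD, n = 3). In TA cells the same list had 11 of 17 called higher and none lower, and in SC cells 7 of 16, beside 17.2% and 15.2% of all genes higher. Prox1 (chr1:190118035-190170714, minus strand), a homeobox factor of endocrine cells and a Wnt target, stood at 0, 0 and 0.139 CPM in ENR and 13.2, 5.69 and 3.80 CPM in Hyper SC cells, a ratio of sums of 274 (exact 95% interval 49.0 to 10800). In EE cells Prox1 had 63 ± 10.9 and 65.5 ± 21.8 CPM. In Hyper SC cells it was thus at 7.55 CPM where Chgb, the chromogranin of granules, was at 3.71 CPM, against 65.5 and 10300 CPM in Hyper EE cells. Chgb does not stand for its list. Endocrine granule genes were higher in 10 of 18 tested in SC, 12 of 21 in TA and 8 of 17 in GC cells, with none lower. Gut hormones were higher in 3 of 10, 6 of 13 and 4 of 7, with 1 lower in SC and 2 lower in TA cells. Of all genes 15.2%, 17.2% and 10.7% were higher in these classes, and 2.80% and 3.78% lower in SC and TA cells.

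**Figure D4:**
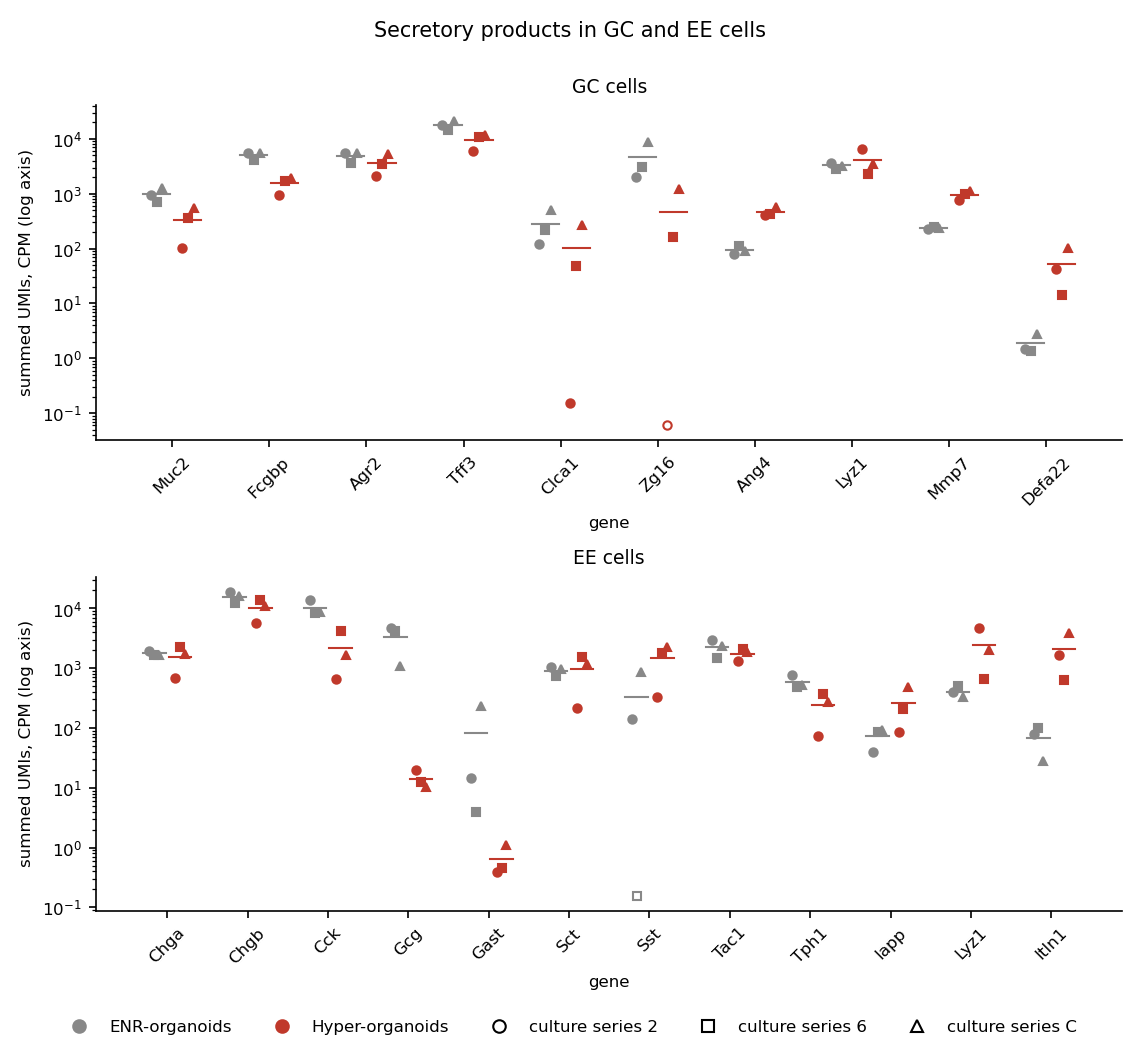
Summed UMIs in CPM (log axis) of goblet and Paneth products in GC cells (top) and of hormones and Paneth products in EE cells (bottom), with 1 point per library (circles, squares and triangles for culture series 2, 6 and C), bars at the means and open symbols at the bottom for libraries without a UMI. Muc2 and Fcgbp are lower and Ang4 and Mmp7 higher in all Hyper GC libraries, and Gcg is at most 19.6 CPM in Hyper EE libraries.

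Paneth products split by class. In SC cells 17 of 22 tested were called lower and 1 higher (median log2 fold change -3.46) and in TA cells 19 of 23 were lower and 1 higher, while in GC cells 6 of 25 were higher and 5 lower and in EE cells 6 of 14 were higher and 1 lower (1.53). Over SC, TA, GC and EE cells, 2.80%, 3.78%, 2.64% and 1.44% of all genes were lower, and 15.2%, 17.2%, 10.7% and 5.96% higher. Lyz1 (chr10:117287797-117292868, minus strand), lysozyme, fell in SC cells from 81.1, 70.2 and 73.4 to 26.7, 7.41 and 13.8 CPM and rose in EE cells from 396, 496 and 329 to 4775, 652 and 2007 CPM (log2 fold change 2.60, SE 0.52, adjusted p 0.00718). In GC cells, at 3694, 2868 and 3242 against 6454, 2286 and 3537 CPM, the groups overlapped.

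Mmp7, the metalloproteinase that activates defensins, was higher in all 4 classes and rose in GC cells from 230, 246 and 233 to 767, 994 and 1117 CPM. Defa22, an alpha-defensin, rose in GC cells from 1.89 ± 0.81 to 52.8 ± 44.2 CPM (SD, n = 3) and fell by 4.19 in SC cells. Alpha-defensin genes are near-identical copies, so their separate UMIs are uncertain. The falls in SC and TA cells went with 32 to 54 annotated Paneth cells in ENR libraries against 2 to 10 in Hyper libraries, and with summed Paneth markers of 99 to 112 against 10 to 33 CPM in SC cells. Free RNA from Paneth cells as a source was not tested. Summed Paneth markers in EE cells were 627, 600 and 335 CPM in ENR and 5111, 841 and 2468 CPM in Hyper-organoids.

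Absorptive genes were called lower more often than genes in general, and in each class at least as many of each list were uncalled as called. Sis, sucrase-isomaltase, fell in GC cells from 51.3, 22.5 and 19.5 to 1.55, 0.745 and 0.212 CPM (log2 fold change -5.08, SE 0.50, adjusted p 2.65e-05) and in EE cells from 367, 349 and 291 to 59.9, 108 and 124 CPM (-1.80, SE 0.24, adjusted p 0.000718). Apoa4, an apolipoprotein of chylomicrons, fell with log2 fold changes of -2.98 in SC, -2.69 in TA, -4.12 in GC and -2.47 in EE cells. The promoters of both are printed above and hold 1 CG dinucleotide each. Brush border genes had 3 of 25 (12%) higher and 7 (28.0%) lower in SC cells, where 15.2% and 2.80% of all genes were called, 3 of 26 (11.5%) and 10 (38.5%) in TA cells, where 17.2% and 3.78% were, 4 of 16 and 3 in GC, and 2 of 15 and 3 in EE cells. Lipid absorption genes had 3 of 18 higher and 4 lower in SC, 1 and 4 in TA, 3 and 6 in GC, and 2 and 4 in EE cells. Annotated absorptive cells were also far fewer in Hyper libraries, as given above, and EP markers in SC cells stood at 785 to 951 CPM in ENR against 318 to 491 CPM in Hyper-organoids. The part of free RNA from those cells was not tested.

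Enzymes of detoxification held more lower calls than genes in general. Of conjugating enzymes of the Gst, Ugt and Sult families, 5 of 36 (13.9%) were higher and 11 (30.6%) lower in SC cells (median log2 fold change -0.57) and 3 of 39 (7.69%) and 15 (38.5%) in TA cells (-0.91), against 15.2% and 2.80% of all genes in SC and 17.2% and 3.78% in TA cells. Gsta3, a glutathione transferase, fell with log2 fold changes of -1.66 in SC, -2.48 in TA, -2.54 in GC and -3.08 in EE cells, while Gsta4, of the same family, rose by 2.09, 1.64, 1.13 and 2.60. Of cytochrome P450 genes, 8 of 36 were higher and 6 lower in SC cells and 11 of 39 and 13 in TA cells. In GC cells 5 of 30 conjugating enzymes were higher and 4 (13.3%) lower, and 6 of 25 P450 genes were higher and 8 (32.0%) lower. In EE cells 3 of 28 and 2 of 18 were higher and 3 (10.7%) and 1 (5.56%) lower, with medians of 0.05 and 0.30. Of all genes 10.7% were higher and 2.64% lower in GC cells, and 5.96% and 1.44% in EE cells. Cyp4f14, an eicosanoid hydroxylase, fell in SC cells from 27, 24.6 and 24.3 to 2.82, 3.95 and 7.97 CPM.

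The difference between classes was tested itself, as the log2 fold change in a class minus that in SC cells, with library as a term. Of 14555 genes, 80 (0.550%) were called for TA against SC cells, 34 (0.234%) with a higher and 46 (0.316%) with a lower change, 487 (3.35%) for GC and 1137 (7.81%) for EE cells. Without ENR replicate 2 the number for TA cells was 38, it was 50 without ENR replicate 3 or Hyper replicate 3, and without ENR replicate 1 more were higher (41) than lower (25). More were also higher than lower without ENR replicate 3 (26 and 24), without Hyper replicate 3 (27 and 23) and after thinning (29 and 25). For EE cells 892 of the genes (6.13%) had a smaller or more negative change than in SC cells and 245 (1.68%) a larger one, and for GC cells 367 (2.52%) and 120 (0.824%). Of 23 AP-1 and immediate early genes, 15 had a lower change in GC and 11 in EE cells than in SC cells, and none a higher one. In TA cells none differed.

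Fos differed by -1.83 in GC (SE 0.19, adjusted p 4.96e-07) and by -1.84 in EE cells (SE 0.21, adjusted p 3.46e-07). Atf3 differed by -2.85 in GC (SE 0.40, adjusted p 1.93e-05) and -2.55 in EE cells (SE 0.43, adjusted p 0.000135). Of 27 enteroendocrine factors, 9 had a lower change in EE than in SC cells and none a higher one, led by Prox1 and Onecut3 (-5.61, SE 0.57, adjusted p 1.4e-07), and Etv1 differed by -4.25 (SE 0.42, adjusted p 5.67e-08). Prox1, Onecut3 and Peg3 had 3 or fewer ENR UMIs in SC cells, so the fitted size of their difference depends on the prior count.

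Of the Paneth products, 12 of 26 had a higher change in GC and 14 in EE cells than in SC cells, and 1 a lower one in each. Of 10 Bex and Tceal genes 7 had a lower change in EE cells, where ENR levels of several were already high. Lgr5 differed by 1.35 in GC (SE 0.21, adjusted p 8.12e-05) and 1.91 in EE cells (SE 0.38, adjusted p 0.000724), and Cdkn1c by -3.83 in EE cells (SE 0.19, adjusted p 1.86e-13). Of Hox A and Hox B genes at most 1 of each list differed between a class and SC cells.

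**Figure D5:**
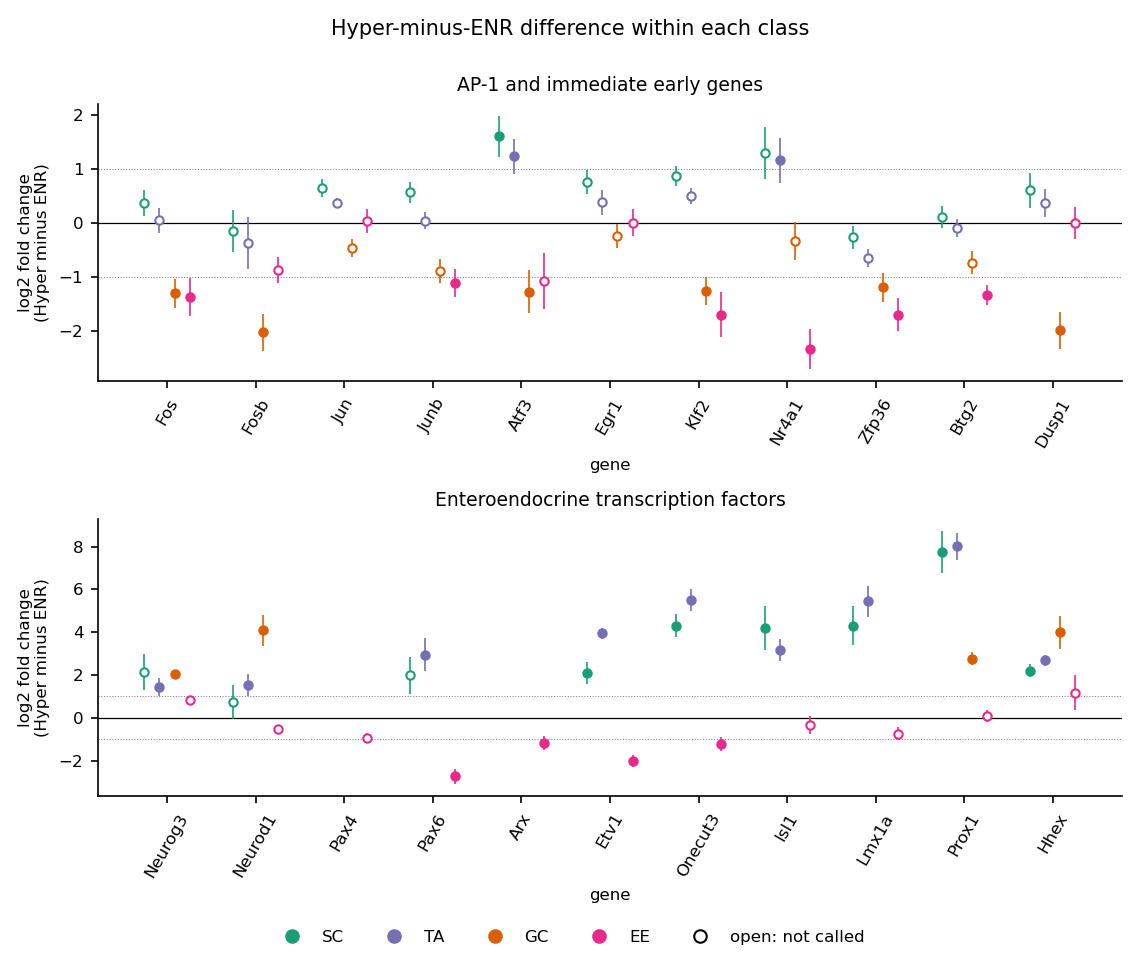
Log2 fold change (Hyper minus ENR) of AP-1 and immediate early genes (top) and of enteroendocrine transcription factors (bottom) in SC, TA, GC and EE cells. Error bars are standard errors, filled points are called, dotted lines mark 2-fold, and a class without a point had too few UMIs of that gene to be tested. Fos is -1.30 in GC and -1.37 in EE cells against 0.37 in SC cells, and Etv1 is -2.02 in EE against 2.09 in SC cells.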

How the data were processed

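The authors aligned reads of a 10x 3′ v3 library preparation to mm10 (GRCm38) with Cell Ranger 3.0.0 per the labels (the file headers name another version), kept cells and classified them with Seurat 3.1.4, and deposited UMI counts per gene and cell, not normalized, with a class for each kept cell. Here UMI counts of 31053 genes were summed per library and class, since cells of one library are not replicates, over the authors' kept cells. No doublet caller was run. All 8 organoid libraries were fitted together per class with edgeR 4.0.16 in R 4.3.3 (TMM, filterByExpr, quasi-likelihood F test, Benjamini-Hochberg), so the 2 -VE-organoid libraries (Hyper medium without VPA and EPZ6438) add only to the estimate of spread. CPM are UMIs scaled to a common total of the TMM-adjusted sum. A gene was called at an adjusted p under 0.05 and at least 2-fold. A second model over SC, TA, GC and EE sums, with library, class and the medium effect within class as terms, tested differences of effect. For genes without a UMI in a group, folds are bounds from 3 UMIs pooled over that group, and for 1 to 3 UMIs ratios have exact 95.0% binomial intervals that cover counting error only.

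The members, the 71 gene lists and the tests were chosen with earlier results of these data known. Genes named are the medium's targets, up to 4 called members of each list in its leading direction and 2 in the other, the member with the highest level called in no class, the 10 genes changed most in all 4 classes, the 5 with the largest difference between classes, and class markers. Pax6, Nr4a1, Junb, Bex3, Vim, Col1a1 and other genes outside this rule were chosen after their values were seen. Positions are GENCODE vM21 on GRCm38 and promoters are RefSeq. One gene is not reported here. Columns of per-sample values that map to no sample numbered 0. Scripts were tested on simulated data.

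Same-numbered ENR and Hyper libraries were taken as one culture series from their library names. Their deviations from the group means correlated, over genes, by 0.192, 0.170 and 0.436 over all cells and by 0.0923, 0.0764 and 0.285 in SC, 0.145, 0.146 and 0.380 in TA, 0.0940, 0.106 and 0.244 in GC, and -0.0336, 0.0683 and 0.151 in EE cells, in the order of series 2, 6 and C. Alternatives were DESeq2 1.42.0, RLE factors, low-count filters, a replicate block, leaving out each replicate, other cell filters and thinning each cell to 10000 UMIs.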

Additional observations from a re-analysis of the deposited data

Results flagged for a closer look

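The difference of the medium effect between 2 classes was tested for every gene, as the log2 fold change (Hyper minus ENR) in a class minus that in SC cells, and genes past the threshold are given here because the effect itself differed. There were 80 such genes for TA, 487 for GC and 1137 for EE cells. Depth differs between the classes, since EE cells are fewest, and its part in these numbers was not tested beyond thinning.

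Several immediate early genes had a lower change in secretory classes, with Fos at -1.83 in GC and -1.84 in EE cells, Junb at -1.52 in GC cells, Atf3 at -2.85 in GC and -2.55 in EE cells, and Nr4a1 at -3.61 in EE cells. Several factors of the endocrine lineage had a lower change in EE cells, with Etv1 at -4.25, Pax6 at -4.67, Onecut3 at -5.61 and Prox1 at -7.62. Genes that ENR EE cells already expressed did as well, with Cdkn1c at -3.83, Peg3 at -7.72, Bex3 at -1.92 and H1fx at -3.37.

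A higher change than in SC cells was found for Lyz1 at 2.57 in GC and 4.62 in EE cells, for Defa22 at 8.75 in GC cells and for Lgr5 at 1.35 in GC and 1.91 in EE cells. Id3 differed by -1.58 in GC cells and Fabp1, a fatty acid binding protein, by -2.10 in TA cells, where it stood at 74.6 ± 17.7 and 41.0 ± 20.5 CPM (SD, n = 3) against 38.1 ± 7.77 and 107 ± 96.7 CPM in SC cells, the last led by Hyper replicate 3 with 216 CPM.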

How the results depend on the processing

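No named gene that was called in the main fit or in an alternative changed direction between them. Signs of genes called in neither were not compared. Calls of named genes still tested were lost more often, 98 without ENR replicate 1 (796 stayed), 97 without ENR replicate 2, 83 without ENR replicate 3, 44 to 63 without a Hyper replicate, 52 after thinning and 46 with DESeq2. Genes no longer tested are not counted as lost. They were many after thinning (640 calls stayed) and under a filter of 10 CPM (443 stayed, 3 lost), since 895 stayed with RLE factors. A replicate block lost 7 calls and gained 23, and no alternative gained more than 35. Of the counts of list members called in one direction, 201 changed by over 1.5 times under a filter of 10 CPM (353 did not), 153 after thinning, 68 without a low-count filter and 46 to 69 without an ENR or Hyper replicate. Numbers of called genes stayed within 1.5 times under DESeq2 (2384 in SC, 2945 in TA, 1454 in GC and 661 in EE cells), RLE factors and the other cell filters. A filter of 10 CPM left 800 over all cells (3675 without it), 627 in SC, 659 in TA, 648 in GC and 46 for TA against SC cells, as fewer genes were tested. Thinning to 10000 UMIs per cell left 811 in GC cells and 291 for GC against SC cells. Without a low-count filter EE cells had 1256 and TA against SC cells 149. Leaving out each replicate gave 3384 to 3806 over all cells, 2199 to 2531 in SC, 2778 to 3109 in TA, 1322 to 1628 in GC and 563 to 894 in EE cells, and 38 to 98 for TA, 326 to 501 for GC and 802 to 1156 for EE against SC cells. For TA against SC cells it was 38 without ENR replicate 2 and 50 without ENR replicate 3 or Hyper replicate 3. There the share of higher differences, 42.5%, became 62.1% without ENR replicate 1, 52% without ENR replicate 3, 54% without Hyper replicate 3 and 53.7% after thinning. With culture series as a replicate block, 3780 genes were called over all cells, 2576 in SC, 3128 in TA, 1613 in GC and 835 in EE cells. No replicate block or DESeq2 fit was run for differences between classes, whose model has library as a term. Sums from 61 to 107 EE cells per library limit what could be called there.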
